A study of Homo sapiens with 12 samples.

Results

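The neuronal cytoskeleton genes described here are DCX, MAP1B, MAP2, MAPT, STMN2, TUBB3, NEFL, NEFM, INA and GAP43. They were found as the rows with these gene symbols. All 10 had a row in both deposited tables, out of 18962 genes matched between the tables. All 12 libraries came from IMR5, a MYCN-amplified neuroblastoma line of human origin, so every group rests on this single line. One group received selinexor at 100 nM for 24 h, a drug that blocks XPO1, the receptor carrying many proteins out of the nucleus, and was set against DMSO, whose time the labels do not give. Another received 1 siRNA against XPO1 (number 10) by nucleofection and was set against control siRNA, both harvested at 72 h. There were 3 libraries in every group. Whether they were separate cultures is not stated, so each p reflects the spread among libraries, which may be technical. The questions were how inhibition of XPO1, and loss of its transcript, changed expression of these genes.

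Neurons build their axons and dendrites on microtubules and intermediate filaments. Doublecortin (DCX), MAP1B, MAP2 and tau (MAPT) bind microtubules, MAP2 mostly in dendrites and tau mostly in axons, while stathmin-2 (STMN2) binds free tubulin and destabilises microtubules in growth cones. TUBB3 is the beta-tubulin isotype typical of neurons. The neurofilament subunits NEFL and NEFM and alpha-internexin (INA) assemble into neuronal intermediate filaments, and GAP43 is a membrane-attached protein of growth cones. Neuroblastoma arises from the sympathetic nervous lineage, and these genes are widely used as signs of its neuronal differentiation.

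Promoters of 3 genes are shown because DCX and MAP1B were higher in both comparisons below and GAP43 was lower with selinexor. They are the 250 bases before the first start listed by RefSeq in GRCh38.p14, at chrX:111412193-111412442 (minus strand) for DCX, chr5:72107225-72107474 (plus strand) for MAP1B and chr3:115623260-115623509 (plus strand) for GAP43. Capitals mark the TATA box letters TATAAA and the GC box letters GGGCGG, on either strand.
DCX: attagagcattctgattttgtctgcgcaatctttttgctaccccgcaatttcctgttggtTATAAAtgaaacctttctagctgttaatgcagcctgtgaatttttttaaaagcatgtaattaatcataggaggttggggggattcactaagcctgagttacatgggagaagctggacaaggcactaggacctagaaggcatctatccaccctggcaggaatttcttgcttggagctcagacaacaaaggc
MAP1B: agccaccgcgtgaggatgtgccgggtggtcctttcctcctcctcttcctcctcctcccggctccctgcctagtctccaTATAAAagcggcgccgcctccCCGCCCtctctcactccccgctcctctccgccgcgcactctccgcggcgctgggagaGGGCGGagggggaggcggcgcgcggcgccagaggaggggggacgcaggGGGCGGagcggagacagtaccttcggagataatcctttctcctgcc
GAP43: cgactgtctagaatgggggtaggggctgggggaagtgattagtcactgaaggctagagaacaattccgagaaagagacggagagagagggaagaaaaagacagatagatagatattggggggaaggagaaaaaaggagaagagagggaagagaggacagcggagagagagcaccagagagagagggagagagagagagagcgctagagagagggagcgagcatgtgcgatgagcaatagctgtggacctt
TATAAA was found once in the DCX and once in the MAP1B promoter, against 11.1% of 27305 promoters of the same length with at least 1 match. GGGCGG was found 3 times in MAP1B and 0 times in the other two, against 42.3% of promoters. The E-box letters CACGTG, held by 6.49% of promoters, and CAGCTG, held by 13.8%, were found 0 times in these 3 windows. The GC content was 70% for MAP1B, 51.6% for GAP43 and 42.8% for DCX, against a median of 58%. MAP1B held 25 CG dinucleotides, GAP43 7 and DCX 2, against a median of 11. DCX and MAP1B each held TATAAA but lay on opposite sides of the median base composition. Such matches describe letters and not sites in use. Of the 10 genes, 6 matched this promoter table by symbol. Matches were listed only for the 3 shown, which were chosen by their changes. Whether such letters go with a rise or fall was not tested.

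In the hg19 coordinates of the files, DCX lies on chromosome X (110537007 to 110655604, minus strand), MAP1B on chromosome 5 (71403061 to 71505396), MAP2 on chromosome 2 (210288782 to 210598843) and MAPT on chromosome 17 (43971748 to 44105701). STMN2 (80523049 to 80578411), NEFL (24808468 to 24814625, minus strand) and NEFM (24770525 to 24776608) lie on chromosome 8. GAP43 lies on chromosome 3 (115342171 to 115440338), INA on chromosome 10 (105036920 to 105050109) and TUBB3 on chromosome 16 (89985573 to 90005170). The files give 1 value per gene, so exons, introns and UTRs were not separated. NEFM overlaps GS1-72M22.1 on the other strand, and TUBB3 overlaps MC1R on the same strand. MC1R averaged 125 with selinexor and 95.8 with DMSO, and GS1-72M22.1 averaged 142 with selinexor and 178 with DMSO, each far under the gene it overlaps.

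Estimated depth was 26.8 to 33.8 M reads per selinexor library, 39.5 to 40.9 M per DMSO library, 33.5 to 55.8 M per XPO1 siRNA library and 40.6 to 54.0 M per control siRNA library. XPO1 fell to 4260, 4377 and 4397 in XPO1 siRNA libraries, against 18568, 18950 and 18908 in control siRNA libraries, a log2 change of -2.11 (SE 0.0311, limma adjusted p = 2.91e-14). With selinexor the XPO1 transcript was not past the threshold (log2 fold change 0.09, SE 0.135, limma adjusted p = 0.623). Selinexor replicate 1 stood apart, its log2 values correlating at 0.972 and 0.973 with those of the other selinexor libraries, against 0.987 between those 2. In it the 10 genes took 0.347% of all counts, against 0.254% and 0.297% in selinexor replicates 2 and 3 and 0.179% to 0.187% with DMSO. MAP1B was the largest part of this share, averaging 66145 with selinexor and 37449 with DMSO. All 10 summed to 90657 to 111879 in selinexor libraries and 64464 to 66234 in DMSO libraries. Mitochondrial transcripts took 0.272%, 0.543% and 0.503% of counts in selinexor libraries and 0.212% to 0.267% in DMSO libraries, and 0.279% to 0.289% in XPO1 siRNA libraries and 0.178% to 0.184% in control siRNA libraries. Their part in the results was not tested. Without selinexor replicate 1, 6 of the 10 genes were called higher and 2 lower with selinexor, and 11113 genes in all were called in place of 8920. Of 12 adrenergic neuroblastoma markers, HAND2 and ISL1 among them, 8 of 11 tested were called higher and 0 lower in each comparison. DBH was called with selinexor only and MYCN with XPO1 siRNA only. Among all genes tested, 22.9% were called higher with selinexor and 25.9% with XPO1 siRNA. The summed level of the markers present in a table, 11 with selinexor and 12 in the knockdown, was 91314 to 105389 in selinexor libraries, 75261 to 78085 in DMSO libraries, 105929 to 112921 in XPO1 siRNA libraries and 85472 to 87804 in control siRNA libraries. The catecholamine enzyme gene TH was near the detection limit in the knockdown table, at means of 5.50 with XPO1 siRNA and 5.41 with control siRNA.

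With selinexor, 5 of the 10 genes rose (DCX, MAP1B, MAPT, STMN2, NEFL), 2 fell (GAP43, TUBB3) and 3 did not pass the test (MAP2, NEFM, INA). Of all 18128 genes tested, 49.2% were called, 22.9% higher and 26.3% lower. With XPO1 siRNA, 7 rose (DCX, MAP1B, MAPT, STMN2, NEFL, NEFM, INA), 1 fell (MAP2) and 2 did not pass (GAP43, TUBB3). Of all 17616 genes tested there, 54.5% were called, 25.9% higher and 28.6% lower. The median log2 fold change of the 10 was 0.50 with selinexor, against -0.01 over all genes tested, and 0.31 with XPO1 siRNA, against 0.00. DCX, MAP1B, MAPT, STMN2 and NEFL were called higher in both comparisons, and none of the 10 fell in both. The share of all genes called the same way in both was not counted, so this overlap has no base rate. A call is a limma adjusted p under 0.05 over all genes of a table, on log2(value + 1) of the authors' normalized read counts. All 10 genes passed the minimum mean of 10, though STMN2 did so in the selinexor table through the selinexor libraries, so its call there had to favour that group. No library of one group reached into the other for any called gene of the 10, nor for MAP2 with selinexor, as for 28.8% of all genes higher and 32.9% lower with selinexor and 29.2% higher and 31.2% lower with XPO1 siRNA. With libraries rescaled to equal totals, 8 rose and 0 fell with XPO1 siRNA, and 62.4% in place of 47.5% of all calls there were higher. Bulk values cannot tell a change in RNA per cell from a change in the share of cells of a kind.

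**Figure D1:**
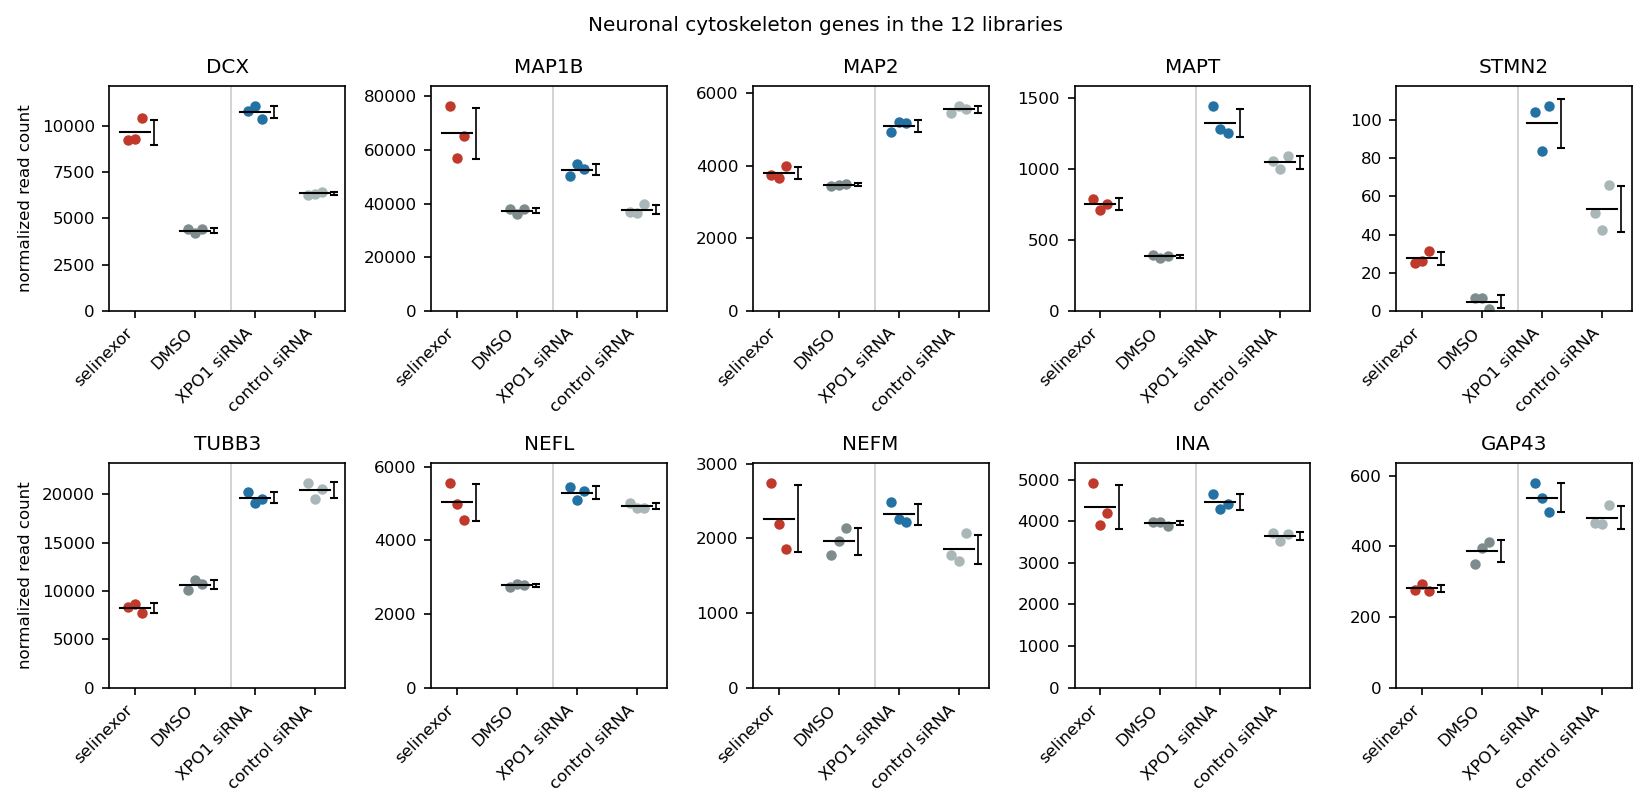
Normalized read counts (y axis, from 0) of the 10 genes in each of the 12 libraries, 1 panel per gene. Dots are libraries, horizontal lines group means and side bars the SD (n = 3). The grey line parts the selinexor table from the knockdown table, which were scaled separately. DCX libraries lay between 9224 and 10400.4 with selinexor, all above the DMSO libraries, while NEFM and INA libraries overlapped between selinexor and DMSO.

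DCX, which binds and stabilises microtubules in migrating neurons, showed the clearest rise by p-value of the 10 in both comparisons. It read 9224, 9302 and 10400.4 in selinexor libraries, against 4412, 4205 and 4406 in DMSO libraries. Every selinexor library was above every DMSO library, and replicate 1 was the lowest of its group. The log2 change was 1.15 (SE 0.0807, limma adjusted p = 1.47e-05), above that of 91.8% of genes tested. DCX read 10770.1, 11041 and 10384 in XPO1 siRNA libraries, against 6284, 6342 and 6410.0 in control siRNA libraries. The groups did not overlap, and the log2 change was 0.76 (SE 0.0334, limma adjusted p = 6.84e-10), above that of 93.4% of genes tested. Per kb, DCX stood at 2.62 ± 0.0758 times MAP2 with selinexor and 1.29 ± 0.0403 times with DMSO, and at 2.18 ± 0.0929 times with XPO1 siRNA and 1.18 ± 0.0156 times with control siRNA (SD, n = 3 each). These ratios use the longest transcript. With the median coding transcript, DCX stood above MAP2 with selinexor (3194 against 1773 per kb) and below it with DMSO (1438 against 1621 per kb), and likewise above it with XPO1 siRNA (3555 against 2380 per kb) and below it with control siRNA (2102 against 2591 per kb). The length chosen multiplies a ratio of 2 genes by the same factor in every library, so it moves the ratio and not its fold between groups.

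MAP1B, a microtubule-associated protein of growing axons, had the highest counts of the 10. It read 76214, 56935 and 65288 in selinexor libraries, against 38173, 36167 and 38006 in DMSO libraries. The groups did not overlap, and replicate 1 was the highest selinexor library. The log2 change was 0.81 (SE 0.114, limma adjusted p = 0.000613), and 0.70 (SE 0.0686, limma adjusted p = 9.99e-07) without selinexor replicate 1. MAP1B read 50434, 54664 and 52759 in XPO1 siRNA libraries, against 37073, 36431 and 39863 in control siRNA libraries. Here too the groups were apart, with a log2 change of 0.48 (SE 0.0417, limma adjusted p = 5.10e-07).

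MAPT, which encodes the axonal protein tau, read 792, 712 and 757 in selinexor libraries, against 395, 375 and 388 in DMSO libraries. No library of one group reached the other, and MAPT was 1.95-fold higher with selinexor (log2 change 0.96, SE 0.0898, limma adjusted p = 6.97e-05). It read 1443, 1285 and 1258 in XPO1 siRNA libraries, against 1055, 999.9 and 1090.4 in control siRNA libraries. The groups did not overlap, and the log2 change was 0.34 (SE 0.058, limma adjusted p = 0.000224). Per kb of longest transcript, MAPT stood at 0.283 ± 0.0162 of MAP2 with selinexor and 0.159 ± 0.0052 with DMSO, and at 0.373 ± 0.0397 with XPO1 siRNA and 0.270 ± 0.0142 with control siRNA (SD, n = 3 each). With the median coding transcript these ratios were lower, MAPT being at 196 and MAP2 at 1773 per kb with selinexor, and MAPT at 101 and MAP2 at 1621 per kb with DMSO.

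MAP2, the dendritic relative of tau, moved little. It read 3740.4, 3659 and 3980.4 in selinexor libraries, against 3426, 3475 and 3506 in DMSO libraries. The libraries did not overlap, as for 28.8% of all genes tested with the selinexor group higher, but the gene was not called (log2 fold change 0.13, SE 0.0746, limma adjusted p = 0.186). It was called without selinexor replicate 1 (0.14, SE 0.0506, limma adjusted p = 0.0300) and with the GC trend removed (0.32, limma adjusted p = 0.00669). MAP2 read 4915, 5205 and 5159 in XPO1 siRNA libraries, against 5439.8, 5626 and 5567 in control siRNA libraries. It fell by 0.12 on the log2 scale (SE 0.0351, limma adjusted p = 0.00904), a call lost with equal totals (-0.03, limma adjusted p = 0.480) and with no intensity trend (limma adjusted p = 0.0527).

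STMN2, which sequesters tubulin in growth cones, was the least abundant of the 10 and had the largest log2 fold change of the 10 in each comparison. It read 25.2, 26.4 and 31.6 in selinexor libraries, against 6.88, 7.06 and 0.903 in DMSO libraries. These values stand for about 75 reads in all with selinexor and 17 with DMSO, or 5.57 times as many after scaling (exact 95% interval 3.26 to 10.1, for counting error alone). The DMSO mean of 4.95 was under the minimum mean of 10, so a call had to favour selinexor. The fitted log2 fold change was 2.53 (SE 0.577, limma adjusted p = 0.00698). It was 1.85 (limma adjusted p = 0.00548) without DMSO replicate 3, which held 1 read, and 1.79 with a pseudocount of 5. STMN2 read 104, 83.7 and 107 in XPO1 siRNA libraries, against 51.6, 42.5 and 66.1 in control siRNA libraries. The groups did not overlap, and 323 reads stood beside 171, or 1.77 times as many after scaling (exact 95% interval 1.47 to 2.14). The log2 change was 0.89 (SE 0.182, limma adjusted p = 0.00101).

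The other stathmins were STMN1, STMN3 and STMN4, of which 0 rose and 1 fell with selinexor and 1 rose with XPO1 siRNA. STMN3 averaged 3701 ± 394 with selinexor and 4774 ± 152 with DMSO (SD, n = 3 each), a log2 change of -0.37 (limma adjusted p = 0.0113). It averaged 4409 ± 161 with XPO1 siRNA and 3848 ± 188 with control siRNA (SD, n = 3 each), a log2 change of 0.20 (limma adjusted p = 0.00153). STMN3 thus moved in opposite directions in the 2 comparisons. STMN2 was called higher with XPO1 siRNA, while its call with selinexor had to favour that group and gives no contrast here.

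TUBB3 fell with selinexor and did not pass the test with XPO1 siRNA. It read 8377, 8628 and 7672 in selinexor libraries, against 10143, 11085 and 10703 in DMSO libraries. Every selinexor library was below every DMSO library, and the log2 change was -0.37 (SE 0.0818, limma adjusted p = 0.00589). TUBB3 read 20270.3, 19151 and 19502 in XPO1 siRNA libraries, against 21178, 19552 and 20579.9 in control siRNA libraries. These libraries overlapped (log2 fold change -0.06, SE 0.037, limma adjusted p = 0.213), and the sign turned with equal totals (0.03).

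The fall of TUBB3 stood beside falls of most other tubulin genes. Among all genes tested, 26.3% were called lower with selinexor and 28.6% with XPO1 siRNA. Of 15 other tubulins tested, 11 fell and 0 rose with selinexor, with a median log2 fold change of -0.53, and 10 fell and 1 (TUBB1, of low level and named after its value was seen) rose with XPO1 siRNA, with a median of -0.26. The alpha-tubulin gene TUBA1B averaged 26525 ± 3814 with selinexor and 105879 ± 3552 with DMSO (SD, n = 3 each), a 4.02-fold fall (limma adjusted p = 5.22e-06). The beta-tubulin gene TUBB4B averaged 4801 ± 380 with selinexor and 13049 ± 503 with DMSO (SD, n = 3 each), a 2.72-fold fall (limma adjusted p = 6.51e-06). With XPO1 siRNA both genes fell again, TUBA1B 1.61-fold and TUBB4B 1.57-fold. TUBG1, the gamma-tubulin of microtubule nucleation, fell 2.27-fold with selinexor and 1.44-fold with XPO1 siRNA. TUBA4A fell 1.39-fold with selinexor and 1.63-fold with XPO1 siRNA. Tubulin genes are close copies of each other, between which reads may have been split, so single members are uncertain.

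Set per kb of longest transcript, TUBB3 made up 20.1%, 18.6% and 18.2% of 7 beta-tubulin genes in selinexor libraries, against 10.6%, 11.03% and 10.9% in DMSO libraries. Every selinexor library was above every DMSO library (18.96% ± 0.979 against 10.84% ± 0.236, SD, n = 3 each). The 6 others together fell to 17791 ± 1191 per kb with selinexor, against 44263 ± 921 per kb with DMSO. The TUBB3 share was 16.7%, 16.9% and 17.2% in XPO1 siRNA libraries, against 14.3%, 13.8% and 13.8% in control siRNA libraries, again with no overlap. The exact two-sided permutation p was 0.10 in each comparison, the smallest that 3 against 3 allows, and 0.108 when adjusted over the 14 ratios tested. TUBB3 thus fell in count with selinexor while its share of beta-tubulin RNA was higher in all 3 libraries.

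**Figure D2:**
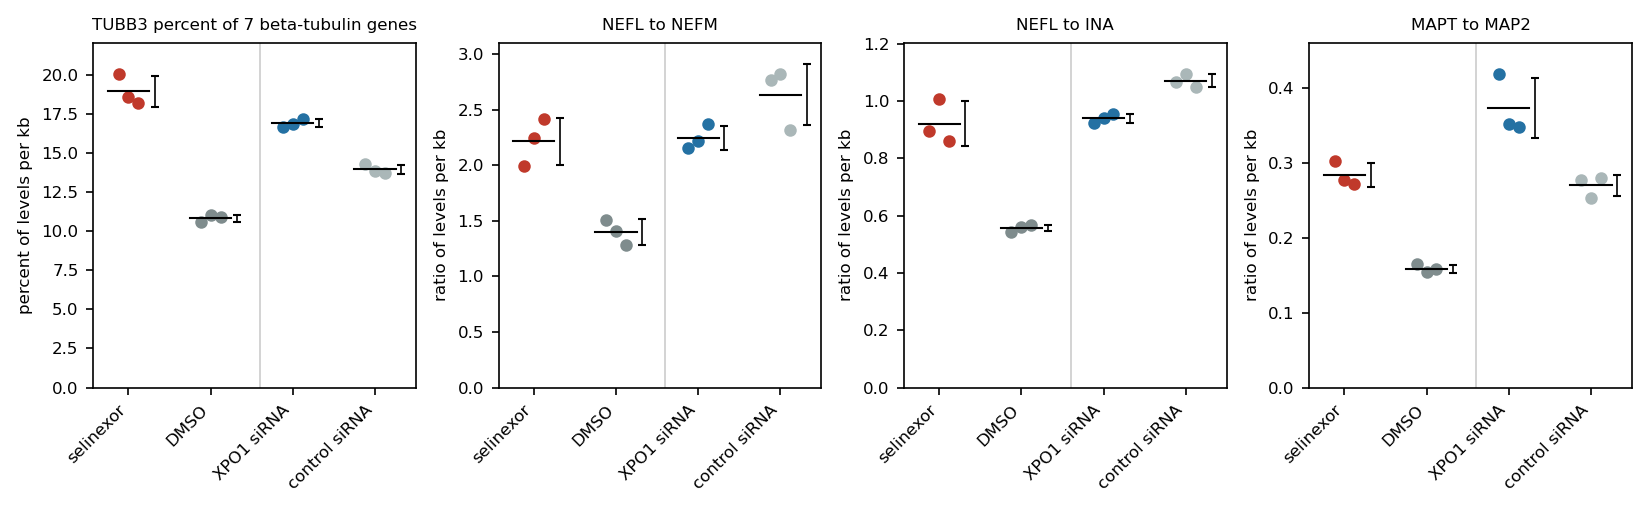
Ratios of levels per kb of longest transcript within each library (y axes, from 0), in the order selinexor, DMSO, XPO1 siRNA and control siRNA. Dots are libraries, lines means and side bars the SD (n = 3). The TUBB3 share of 7 beta-tubulin genes lay at 18.2% to 20.1% with selinexor and 10.6% to 11.03% with DMSO, and the NEFL to INA ratio was higher than its control with selinexor and lower with XPO1 siRNA.

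Of the 3 neuronal filament genes, NEFL rose with selinexor and NEFM and INA did not pass the test. NEFL, the light neurofilament subunit, read 5562, 4992 and 4549 in selinexor libraries, against 2733, 2815 and 2783 in DMSO libraries. The groups were far apart, with a log2 change of 0.85 (SE 0.0911, limma adjusted p = 0.000145). NEFM, the medium subunit, read 2744, 2191 and 1854 in selinexor libraries, against 1783, 1965 and 2137 in DMSO libraries. These libraries overlapped (log2 fold change 0.19, SE 0.144, limma adjusted p = 0.297), and replicate 1 was the highest. INA read 4924, 3920.0 and 4189 in selinexor libraries, against 3982, 3977 and 3892 in DMSO libraries. These overlapped as well (log2 fold change 0.13, SE 0.0971, limma adjusted p = 0.294). Without selinexor replicate 1 the log2 fold changes were 0.78 for NEFL, 0.04 for NEFM and 0.04 for INA.

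With XPO1 siRNA all 3 of these filament genes rose, and NEFL, which changed most with selinexor, changed least. NEFM read 2488, 2264 and 2216 in XPO1 siRNA libraries, against 1784, 1702 and 2074 in control siRNA libraries. It was higher in every library, with a log2 change of 0.33 (SE 0.0662, limma adjusted p = 0.000852). INA read 4669.6, 4289.9 and 4423 in XPO1 siRNA libraries, against 3730.1, 3530.5 and 3685 in control siRNA libraries. The groups did not overlap, and the log2 change was 0.29 (SE 0.0401, limma adjusted p = 3.68e-05). NEFL read 5445, 5097 and 5331 in XPO1 siRNA libraries, against 5018, 4882 and 4889 in control siRNA libraries. Its rise was small, with a log2 change of 0.10 (SE 0.0356, limma adjusted p = 0.0269). The NEFL call was lost without control siRNA replicate 2 (limma adjusted p = 0.0564) or 3 (0.0744), without XPO1 siRNA replicate 1 (0.0925) or 3 (0.0882), and with no intensity trend (0.0938).

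The ratio of NEFL to INA per kb compares both genes within a library. It was 0.894, 1.01 and 0.860 in selinexor libraries, against 0.543, 0.560 and 0.566 in DMSO libraries. In XPO1 siRNA libraries it was 0.923, 0.940 and 0.954, against 1.06, 1.09 and 1.05 in control siRNA libraries. The groups did not overlap in either comparison, and their order was opposite (exact two-sided permutation p = 0.10 in each, the smallest possible). The ratio of NEFL to NEFM averaged 2.22 ± 0.211 with selinexor and 1.40 ± 0.114 with DMSO (SD, n = 3 each). It averaged 2.25 ± 0.110 with XPO1 siRNA and 2.64 ± 0.276 with control siRNA, where libraries overlapped (exact two-sided permutation p = 0.20).

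Of 8 other intermediate filament genes tested, 6 fell and 1 rose with selinexor, with a median log2 fold change of -0.71, and 5 fell and 2 rose with XPO1 siRNA, with a median of -0.30. Those with the smallest p included nestin (NES), the filament of neural progenitors, vimentin (VIM) and the nuclear lamins LMNB1 and LMNB2. NES averaged 6264 ± 683 with selinexor and 16672 ± 293 with DMSO (SD, n = 3 each), a 2.67-fold fall (limma adjusted p = 1.10e-05). NES averaged 10819 ± 438 with XPO1 siRNA and 14973 ± 577 with control siRNA (SD, n = 3 each), a 1.38-fold fall (limma adjusted p = 3.11e-07). VIM fell 1.31-fold with selinexor and 1.40-fold with XPO1 siRNA, and LMNB1 fell 3.18-fold with selinexor and 1.29-fold with XPO1 siRNA. LMNB2 fell 1.81-fold with selinexor and 1.25-fold with XPO1 siRNA. Genes named after their values were seen were LMNA, PRPH and NEFH. The lamin gene LMNA was the single rise with selinexor (log2 change 1.46, limma adjusted p = 0.000307) and rose with XPO1 siRNA (0.13, limma adjusted p = 0.0286). PRPH, the filament of peripheral neurons, fell with selinexor (-0.56, limma adjusted p = 0.0106) and rose with XPO1 siRNA (0.29, limma adjusted p = 0.00101). None of NEFL, NEFM and INA was called lower in either comparison. Nor was the neurofilament gene NEFH, one of these 8, so this was not particular to those 3. NEFH was not called with selinexor (0.18, limma adjusted p = 0.42) or with XPO1 siRNA (0.17, limma adjusted p = 0.0996). Among all genes tested, 26.3% were called lower with selinexor and 28.6% with XPO1 siRNA.

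GAP43, a protein of the growth cone membrane, fell with selinexor. It read 276, 292 and 274 in selinexor libraries, against 351, 394 and 413 in DMSO libraries. Every selinexor library was below every DMSO library, with a log2 change of -0.46 (SE 0.104, limma adjusted p = 0.00722). GAP43 read 579, 537 and 496 in XPO1 siRNA libraries, against 464, 462 and 517 in control siRNA libraries. These libraries overlapped (log2 fold change 0.16, SE 0.0737, limma adjusted p = 0.0852). The gene was called higher there without control siRNA replicate 3 (0.21, limma adjusted p = 0.0415) or XPO1 siRNA replicate 3 (0.21, limma adjusted p = 0.0385), with equal totals (0.25, limma adjusted p = 0.00833) and with the length trend (0.28, limma adjusted p = 0.00467) or GC trend (0.18, limma adjusted p = 0.0406) removed.

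**Figure D3:**
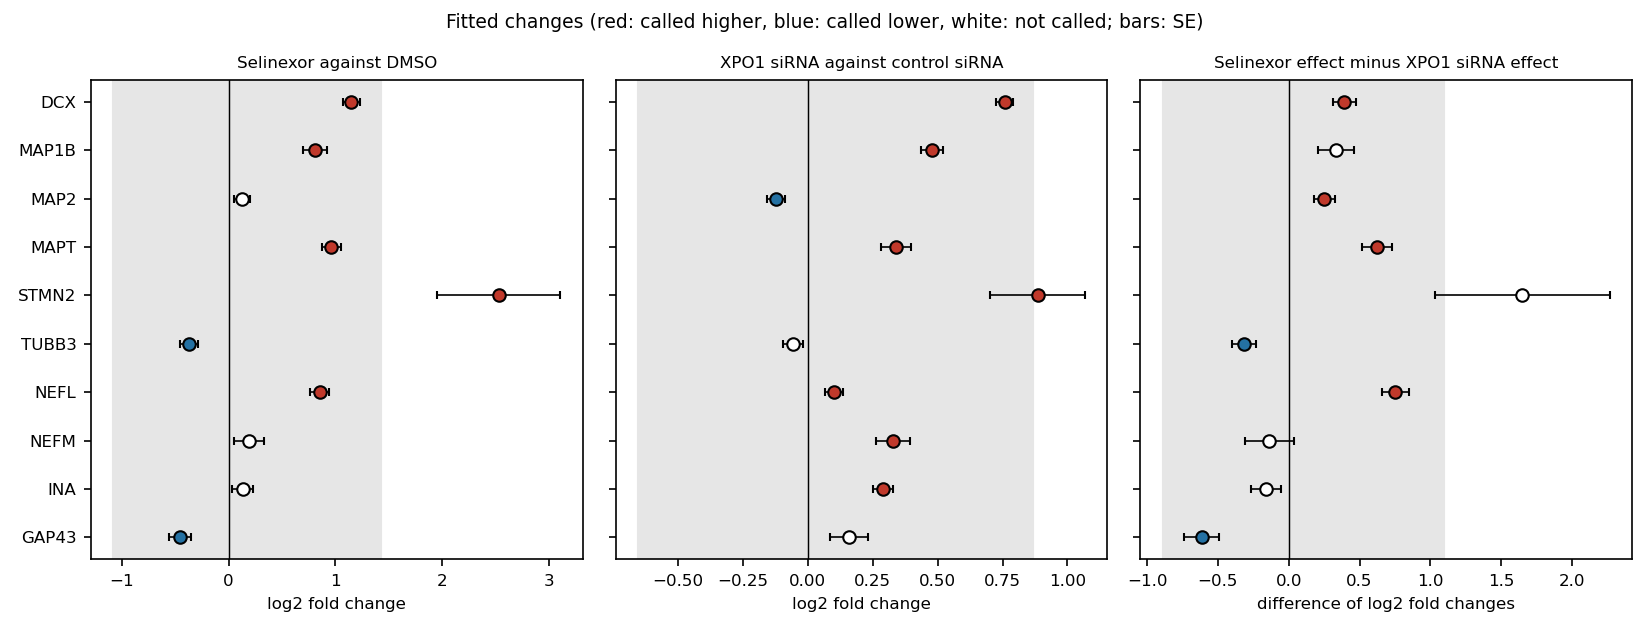
Fitted log2 fold changes (x axes) of the 10 genes with selinexor, with XPO1 siRNA, and the difference of the 2 effects. Dots are limma estimates, bars their SE, and fill shows the call at an adjusted p under 0.05. The grey band spans the 5th to 95th percentile of all genes tested. STMN2 lies furthest right with selinexor, at 2.53, and GAP43 (-0.46) and TUBB3 (-0.37) lie left of 0.

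The difference between the effects of selinexor and of XPO1 siRNA was tested in 1 fit over the 12 libraries. Times differed, at 24 h and 72 h, and so did the way of acting on XPO1, so these cannot be told apart. The effect of selinexor was higher for 4 genes (NEFL, MAPT, DCX, MAP2) and lower for 2 (GAP43, TUBB3), where 31.8% of 17308 genes tested were called, 11.6% higher and 20.2% lower. The difference was 0.75 for NEFL (SE 0.0954, limma adjusted p = 7.86e-05), 0.62 for MAPT (SE 0.103, limma adjusted p = 0.000584) and 0.39 for DCX (SE 0.0818, limma adjusted p = 0.00288). NEFL, which had the largest called difference of the 10, rose 1.81-fold with selinexor and 1.07-fold with XPO1 siRNA. The difference was -0.61 for GAP43 (SE 0.125, limma adjusted p = 0.00242) and -0.32 for TUBB3 (SE 0.0868, limma adjusted p = 0.0145). For MAP2 it was 0.25 (SE 0.0743, limma adjusted p = 0.0209), a call lost without DMSO replicate 1 (limma adjusted p = 0.0502), control siRNA replicate 2 (0.0513) or XPO1 siRNA replicate 1 (0.0599).

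For 4 genes the difference was not past the threshold. It was 0.33 for MAP1B (SE 0.126, limma adjusted p = 0.0589) and 1.65 for STMN2 (SE 0.618, limma adjusted p = 0.0573). Each passed without selinexor replicate 1, at 0.23 for MAP1B (limma adjusted p = 0.0286) and 1.71 for STMN2 (limma adjusted p = 0.0287). STMN2 reached the minimum mean in the selinexor table only through the selinexor libraries, so its selinexor effect had to favour that group. Its difference, in any setting, is thus not read as a larger effect of selinexor. MAP1B also passed without selinexor replicate 2 (0.44, limma adjusted p = 0.00433), at a mean of 50 or more (limma adjusted p = 0.0493), and with the length trend (limma adjusted p = 0.0131) or GC trend removed (limma adjusted p = 0.0355). STMN2 also passed without DMSO replicate 1 (limma adjusted p = 0.0321), 2 (0.0317) or 3 (0.96, limma adjusted p = 0.0406), and with the GC trend removed (limma adjusted p = 0.0366). INA stood at -0.16 (SE 0.106, limma adjusted p = 0.272) and passed without selinexor replicate 1 (-0.25, limma adjusted p = 0.0028). NEFM stood at -0.14 (SE 0.175, limma adjusted p = 0.583), and at -0.29 (limma adjusted p = 0.0557) without that library.

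Levels were set against each other as normalized count per kb of the longest annotated transcript. MAP1B stood at 5496 ± 803 per kb and TUBB3 at 4159 ± 250 per kb with selinexor (SD, n = 3), against 3111 ± 92.5 for MAP1B and 5381 ± 240 for TUBB3 with DMSO. The order of these 2 genes differed between the groups and their libraries did not overlap, but with the median coding transcript as length MAP1B was first in both groups. INA (1345 ± 161), NEFL (1233 ± 124), DCX (1025 ± 69.9), NEFM (563 ± 112), MAP2 (391 ± 17.2), GAP43 (148 ± 5.12), MAPT (111 ± 5.86) and STMN2 (12.5 ± 1.54) followed in selinexor libraries. Libraries of INA and NEFL overlapped there, and no other neighbours did. With DMSO the order after TUBB3 and MAP1B was INA, NEFL, NEFM, DCX, MAP2, GAP43, MAPT and STMN2, and only NEFM and DCX overlapped. With the median coding transcript, DCX was above NEFM with DMSO as well (1438 against 692 per kb). With XPO1 siRNA, TUBB3 stood at 9930 ± 289 per kb and STMN2 at 44.3 ± 5.77 per kb, against 10332 ± 416 for TUBB3 and 24.0 ± 5.36 for STMN2 with control siRNA. In these groups TUBB3 was highest, MAP1B next and STMN2 lowest, and libraries of INA and NEFL overlapped with XPO1 siRNA only. With the median coding transcript as length, 13 of 40 ranks were kept, among them STMN2 as the lowest in all 4 groups, with MAP1B and TUBB3 as the highest pair. Tables were scaled separately, so levels are not compared between the selinexor and knockdown tables.

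**Figure D4:**
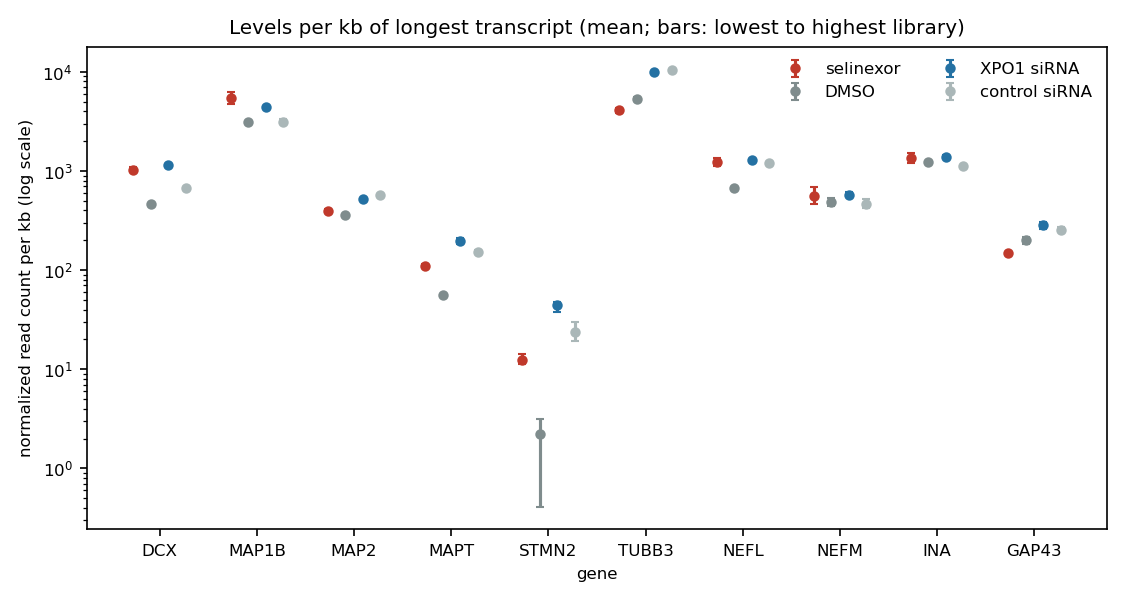
Normalized read count per kb of longest transcript (y axis, log scale) for each gene, as the mean of 3 libraries with bars from the lowest to the highest library. Colours give selinexor, DMSO, XPO1 siRNA and control siRNA. STMN2 is lowest in every group, at 12.5 per kb with selinexor and 2.23 per kb with DMSO.

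Other genes that act on microtubules moved both ways. Among all genes tested, 22.9% were called higher and 26.3% lower with selinexor, and 25.9% higher and 28.6% lower with XPO1 siRNA. Of 24 further microtubule-associated proteins tested, 9 rose and 4 fell with selinexor (median log2 fold change 0.09) and 12 rose and 5 fell with XPO1 siRNA (median 0.15). DCLK3, a kinase related to doublecortin, averaged 1124 ± 225 with selinexor and 831 ± 17.7 with DMSO (SD, n = 3 each), a 1.34-fold rise (limma adjusted p = 0.0321), and rose 1.48-fold with XPO1 siRNA (limma adjusted p = 3.44e-07). CAMSAP1 rose 1.26-fold and CAMSAP2 rose 1.32-fold with XPO1 siRNA; both bind microtubule minus ends, and neither was called with selinexor (limma adjusted p = 0.547 for CAMSAP1 and 0.927 for CAMSAP2). MAP4, the widely expressed relative of MAP2 and tau, fell 1.32-fold with XPO1 siRNA (limma adjusted p = 2.74e-06) and was not called with selinexor (limma adjusted p = 0.490).

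Of 18 kinases of tau and related proteins, 6 rose and 2 fell with selinexor (median log2 fold change 0.13). These were 33.3% and 11.1% of the list, against 22.9% of all genes higher and 26.3% lower. With XPO1 siRNA 9 rose and 2 fell (median 0.15), or 50% and 11.1%, against 25.9% and 28.6% of all genes. The tau-tubulin kinase gene TTBK1 averaged 935.6 ± 200.2 with selinexor and 383 ± 31.7 with DMSO (SD, n = 3 each), a 2.41-fold rise (limma adjusted p = 0.000262). TTBK1 averaged 935 ± 41.3 with XPO1 siRNA and 367 ± 36.4 with control siRNA (SD, n = 3 each), a 2.55-fold rise (limma adjusted p = 6.52e-09). MAPK10, the JNK isoform of neurons, rose 1.32-fold with selinexor and 1.51-fold with XPO1 siRNA, while MAPK9, another JNK isoform, fell 1.40-fold with selinexor and 1.43-fold with XPO1 siRNA. MARK4, which phosphorylates microtubule-associated proteins, rose 1.41-fold with XPO1 siRNA and was not called with selinexor (limma adjusted p = 0.254).

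Of 15 growth cone and collapsin response mediator genes, 2 rose and 7 fell with selinexor (median log2 fold change -0.22). With XPO1 siRNA 4 rose and 7 fell (median -0.01). Among all genes, 22.9% rose and 26.3% fell with selinexor, and 25.9% rose and 28.6% fell with XPO1 siRNA. DPYSL5 averaged 1025 ± 107 with selinexor and 2739 ± 14.6 with DMSO (SD, n = 3 each), a 2.68-fold fall (limma adjusted p = 1.05e-05), and DPYSL3 fell 1.605-fold. With XPO1 siRNA DPYSL5 fell 1.30-fold and DPYSL3 fell 1.14-fold. CRMP1 of the same family rose 1.25-fold with selinexor and 1.17-fold with XPO1 siRNA, and DPYSL4 rose 1.27-fold with XPO1 siRNA and was not called with selinexor (limma adjusted p = 0.322). Of 24 severing and tubulin-modifying enzymes, 4 rose and 10 fell with selinexor (median -0.29), and 5 rose and 11 fell with XPO1 siRNA (median -0.11). The severing subunit gene KATNA1 fell 1.41-fold with selinexor and 1.53-fold with XPO1 siRNA, and the tubulin deacetylase gene SIRT2 rose 1.49-fold with selinexor and 1.32-fold with XPO1 siRNA. With XPO1 siRNA the tubulin cofactor gene TBCB fell 1.23-fold and KATNAL1 fell 1.20-fold, and with selinexor neither was called (limma adjusted p = 0.0564 for TBCB and 0.122 for KATNAL1).

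Markers of other cell types were read beside these results. Among all genes tested, 22.9% were called higher and 26.3% lower with selinexor, and 25.9% higher and 28.6% lower with XPO1 siRNA. Of 10 mesenchymal neuroblastoma markers tested, 0 rose and 5 fell in each comparison. FN1, VIM and YAP1 fell in both, SNAI2 and THY1 with selinexor only, and CD44 and COL1A1 with XPO1 siRNA only. COL1A1 averaged 987 with selinexor and 675 with DMSO, and was not called (limma adjusted p = 0.295). VIM was the largest part of the sum below, averaging 13044 with selinexor, 17043 with DMSO, 11864 with XPO1 siRNA and 16598 with control siRNA. The summed level of the 11 present in each table, tested or not, was 18965 to 21509 in selinexor libraries and 25549 to 26628 in DMSO libraries, and 18524 to 18701 in XPO1 siRNA libraries and 24416 to 25193 in control siRNA libraries. Of 7 Schwann and glial markers tested with selinexor 3 rose and 2 fell, and of 5 with XPO1 siRNA 1 rose and 2 fell. Summed over those present, 8 in the selinexor table and 7 in the knockdown table, the level was 2364 to 2564 in selinexor libraries, 3543 to 3781 in DMSO libraries, 3663 to 3767 in XPO1 siRNA libraries and 4157 to 4383 in control siRNA libraries. The Schwann lineage factor SOX10 averaged 20.0 with selinexor and 15.3 with DMSO. Of 4 leukocyte and endothelial markers tested with selinexor 1 rose, and of 2 with XPO1 siRNA 1 rose. Summed over the 5 present in each table, the level was 96.0 to 152 in selinexor libraries, 62.8 to 67.7 in DMSO libraries, 112 to 119 in XPO1 siRNA libraries and 62.6 to 70.9 in control siRNA libraries. RN7SL1 and RN7SL2, RNAs of the signal recognition particle, took 12.6% to 16.0% of counts with selinexor and 9.40% to 9.72% with DMSO, and 10.8% to 12.4% with XPO1 siRNA and 12.6% to 13.1% with control siRNA. None of the markers tested was at 0 in every library. The part of these markers and RNAs in the results was not tested.

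The genes with the most similar pattern were those with the smallest root mean square difference in log2 values, each minus its control mean, over the 12 libraries, among 13855 genes. Those nearest TUBB3 were TRAPPC10 and GLE1 (0.03 each). INA was nearest to KDM2A and MYCN (0.04 each) and GAP43 to SMAD1 (0.05) and LEO1 (0.06). DCX was nearest to CSNK1G1 and PTPN3 (0.06 each), MAPT to FAM84A (0.06) and CADPS (0.07), and NEFL to TICAM1 and ARHGDIG (0.06 each). MAP1B was nearest to CACNA1B (0.07) and GATA3 (0.08), NEFM to RBM19 (0.06) and IGDCC3 (0.07), and MAP2 to RABGAP1L and SH3BP4 (0.05 each). STMN2 had no close neighbour, with PLEKHG1 at 0.44 and HID1 at 0.45. The measure includes counting error, and STMN2 held about 8, 8 and 1 reads in DMSO libraries. The part of counting error in these differences was not tested.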

How the data were processed

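Per the labels, the RNA was total RNA, prepared with a stranded kit, from IMR5 cells. The submitters' processing notes name STAR 2.7.3a, Partek, DESeq2 and build hg19. For the annotation, the counting options and whether strand was used, nothing is stated in labels or headers. Each deposited value is a signal in the sense of a gene's count over its library's size factor, and the authors scaled the 2 tables apart. In the knockdown table, 3 columns of per-sample values matched no sample and were not used, and 25 symbols turned into dates were left unmatched.

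Of values from 0.3 to 60, 62.0% to 66.8% were whole multiples of 1 step per library within 0.02 (chance 4%), so no count model was fitted. The steps gave approximate reads, and intervals cover counting error only. The test was limma 3.58.1 in R 4.3.3 with an intensity trend, two-sided, applied to log2(value + 1) of genes whose mean reached 10 in a table. P-values were adjusted by Benjamini-Hochberg across every gene tested, and 0.05 was the threshold. Group was the only term, and the difference of effects was fitted over 12 libraries with 4 group means. Fold changes are differences of mean log2(value + 1); the pseudocount draws low values together, and a fold can differ from the ratio of means or reads. Ratios used exact two-sided permutation tests. Lengths and GC content came from GENCODE 29 by symbol, for 81.5% and 82.4% of genes tested. Python 3.11.15, pandas 2.3.3, scipy 1.17.1 and matplotlib 3.10.9 were used, and the fits were tested on simulated data. The simulation gave every library the same spread, so it does not cover a library that stands apart, as selinexor replicate 1 did.

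The 10 genes and the other lists were chosen with earlier results of these data known. Named were all 10, XPO1, up to 4 called genes per list with the smallest adjusted p in either comparison, and 2 genes per member with the most similar pattern. Marker genes, MC1R, GS1-72M22.1, STMN1, STMN4, TUBB1, LMNA, PRPH and NEFH were named outside this rule. Alternatives were other pseudocounts, filters and scalings, each library left out, a replicate block, no intensity trend, and length or GC trends removed.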

Additional observations from a re-analysis of the deposited data

How the results depend on the processing

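Of 538 alternative values of single genes, 508 kept their direction and side of the threshold, 10 lost and 18 gained a call, and 2 turned sign. Those 2 were TUBB3 with XPO1 siRNA, not called in either setting, at 0.033 with equal totals and 0.055 with the length trend removed. Of 162 alternative counts, 160 stayed within 1.5 times. The count of the 10 genes lower with XPO1 siRNA was 0 with equal totals and with no intensity trend, since MAP2 was the only one. Over left-out libraries, genes called with selinexor ran from 6540 to 11113, with XPO1 siRNA from 8428 to 9148, and for the difference from 4352 to 7621; the highest of the first and last came without selinexor replicate 1. STMN2 with selinexor had no value at a mean of 50 or more. Replicate numbers did not pair the samples: deviations of same-numbered libraries correlated at -0.104 to 0.119. With a replicate block, 8671, 9321 and 5067 genes were called in place of 8920, 9603 and 5510, and the calls of the 10 genes were 5 higher and 2 lower, 7 and 1, and 4 and 2. The limits are 3 libraries per group, 1 siRNA, 1 cell line, separately scaled tables and, for STMN2, few reads.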
